A study of Beta vulgaris with 9 samples.

Results

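Of the 43133 rows of the deposited transcript table of sugar beet leaves, 1044 carry an identifier listed for the annotated long noncoding RNAs (lncRNAs) of the reference, although the files do not settle that these rows measure the lncRNAs. A row was taken when its transcript identifier is 1 of the 688 identifiers of the deposited list of annotated lncRNAs, and every repeat of an identifier was kept as a row of its own. The table types all 1044 rows as protein-coding. LncRNAs are transcripts that are spliced and processed much like messenger RNAs but are not known to encode a protein. In plants, some of them act on chromatin or serve as decoys for small RNAs, and some arise beside or opposite a coding gene whose RNA they accompany. Their level in a leaf is usually low, and many are made only under particular conditions.

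All plants were of 1 sugar beet (Beta vulgaris) cultivar, KWS0143, grown in Hoagland nutrient solution and treated as seedlings of 5 weeks. Control leaves were taken at day 0, short-term leaves at day 3 and long-term leaves at day 7 of a mixed alkaline solution of 75 mM (Na2CO3 and NaHCO3), with 3 libraries in each group and leaves from the same position. No library was made from untreated plants at the later days, so alkaline treatment and the age of the leaf cannot be told apart. RNA was sequenced after removal of ribosomal RNA, and its level is given as FPKM, a count of fragments corrected for the length of the transcript and the size of the library. Read depth is unknown, because whole reads could not be recovered from the values, so the counting error of low rows is unknown as well.

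On the first principal component of the tested rows, with 45.1% of the variance, control replicate 1 lay at -1.51 while the other 2 control libraries lay at -62.3 and -81.0. Short-term libraries lay between -22.4 and 3.81 and long-term libraries between 26.9 and 70.9, so control replicate 1 sat among the short-term libraries. A list of 26 leaf genes (antenna proteins, photosystem subunits, Rubisco and its activase) summed to 57144 to 72626 FPKM in control, 38250 to 51032 at day 3 and 29330 to 43139 at day 7, and none was at 0. Of the seed markers 2 genes were found, of which 1 was at 0 in every library, and no gene matched the root endodermis marker. The part of this decline of leaf markers in the changes below was not tested, and in whole leaves fewer cells of a type and less RNA per cell cannot be told apart.

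The identifiers and the loci did not point to the same transcript. All 688 identifiers begin with XM_, the RefSeq prefix for predicted messenger RNAs, and all 688 also stand in the deposited list of messenger RNAs, each time under another gene identifier and never at the same position. All 1044 rows carry the gene identifier of the messenger RNA and 0 carry that of the lncRNA, and none of the 688 lncRNA gene identifiers occurs among the rows of FPKM. In the RefSeq gene table of the EL10.2 assembly, used for gene types only, 390 of the lncRNA gene identifiers were found, of which 336 are typed as lncRNA, 52 as protein-coding and 2 as miscellaneous RNA, whereas all 499 of the transcript identifiers that were found there are protein-coding. The files therefore do not settle whether a row measures the lncRNA or the messenger RNA of that identifier, nor by which length its FPKM was divided. Below, a row is named by its identifier, and a product name is that of the coding gene whose identifier the row carries.

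The coding gene under an identifier was mostly the last to begin before the lncRNA locus. The distances below are thus distances between neighbours. For 663 identifiers both were on the same chromosome or unplaced sequence, where 86 pairs overlapped and 577 lay apart by a median of 9807 bp (quartiles 3598 and 24029 bp, at most 162167 bp). The messenger RNA began before the lncRNA locus for 661 of them, and for 660 its gene was the last coding gene to begin before it. For the other 25 identifiers it was the last coding gene on its own sequence. The strands were the same in 367 of the 663 pairs. Within 10 kb of the lncRNA locus, or overlapping it, a coding gene was listed for 517 loci (75.1%), with 87 overlapping one on the opposite strand and 61 on the same strand.

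The list types 685 loci as lncRNA and 3 as miscellaneous RNA. Of these loci, 521 were on 9 chromosomes and 167 (24.3%) on 115 unplaced sequences, with 344 on either strand. Their deposited length had a median of 1042.5 nucleotides (quartiles 670 and 2258), against 1713.5 for the messenger RNAs under the same identifiers and 1666 for all other messenger RNAs. The loci were longer than the lncRNAs assembled from these libraries, which had medians of 260 nucleotides when intergenic and 240 when antisense, and longer than transcripts of uncertain coding potential, with 504. Every annotated locus was spliced, with a median of 3 exons, and 250 (36.3%) had 2 exons. The longest open reading frame had a median of 102 in the list, which does not state its unit, and reached 100 in 361 loci, against a median of 395.5 for the messenger RNAs under the same identifiers.

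For 66 loci (9.59%) the deposited length was greater than the span from their start to their end, which 1 spliced transcript cannot exceed. These loci had a median length of 11165 nucleotides and a median of 27 exons, against 935.5 nucleotides and 3 exons for the 622 others. The longest, under XM_010695220.2, was given 419327 nucleotides and 182 exons between positions 1169084 and 1184884 of NW_017567365.1. The locus with most exons, under XM_010694195.2, was given 399 exons and 73117 nucleotides between 3209715 and 3219619 of NC_025813.2. The shortest, under XM_010693344.2, had 102 nucleotides in 3 exons between 44350348 and 44355513 of NC_025820.2. Which genome build these positions refer to is not given in the labels or methods.

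**Figure D1:**
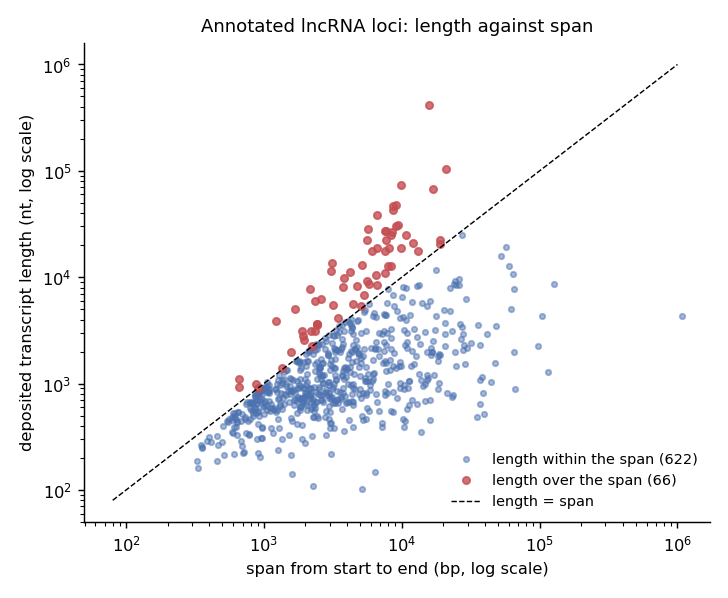
Deposited length of each of the 688 annotated lncRNA loci (vertical axis, nucleotides, log scale) against its span from start to end (horizontal axis, bp, log scale). The 66 red points lie above the dashed line, where length and span are equal, and have a median length of 11165 nucleotides, while the 622 blue points lie on or below it.

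The rows with annotated lncRNA identifiers had a higher median level than any other type of row. Their median was 1.26 to 1.81 FPKM in the 9 libraries, against 0.357 to 0.585 for other protein-coding rows, 0.505 to 0.803 for transcripts of uncertain coding potential, 0 to 0.129 for intergenic and 0 for antisense lncRNAs. The share of rows over 0.5 FPKM was 68.4% to 74.5%, against 47.1% to 51.5% of other protein-coding rows and 21.3% to 28.5% of intergenic lncRNAs. None of these ranges overlapped that of the annotated lncRNA rows. The ratio of their median to that of the other protein-coding rows was 3.25 ± 0.146 (SD over 9 libraries). Among rows that passed the filter for testing it was 0.690 ± 0.0236, so the direction turned once rows of low level were left out. With the rows of an identifier summed it was 7.28 ± 0.265. Level and the length of the locus had a Spearman correlation of -0.031 over the 337 identifiers with 1 row, and the medians of the rows in 4 equal bins of locus length, from short to long, were 1.62, 1.71, 1.69 and 1.43 FPKM.

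**Figure D2:**
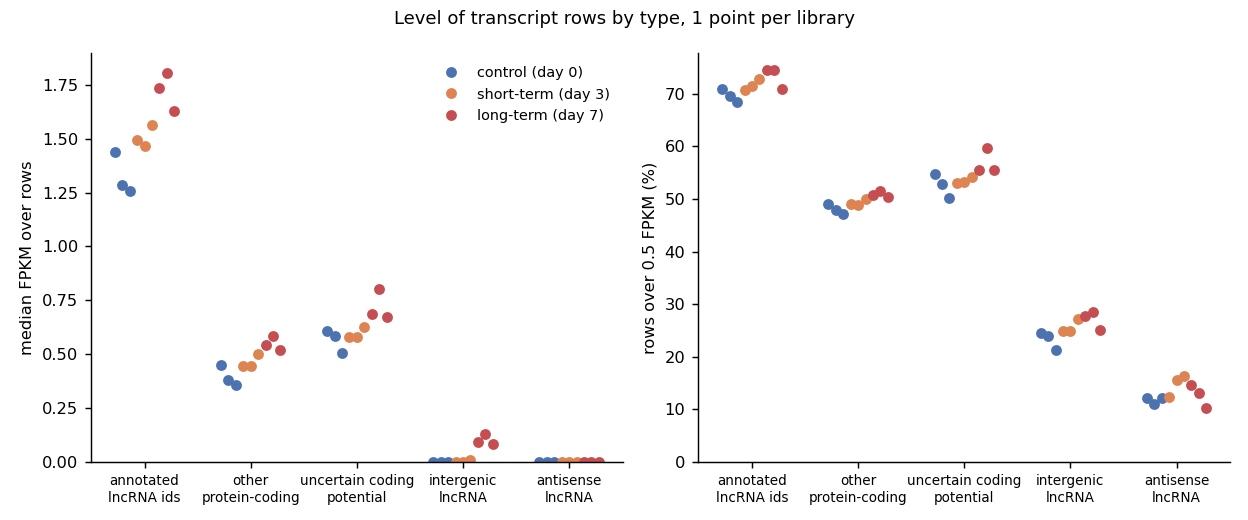
Median FPKM over rows (left) and share of rows over 0.5 FPKM in percent (right) for each type of row, with 1 point for each of the 9 libraries, coloured by group. Rows with annotated lncRNA identifiers sit at 1.26 to 1.81 FPKM and 68.4% to 74.5%, above every other type in each library.

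By group, the median of the annotated lncRNA rows was 1.33 ± 0.097 FPKM in control, 1.51 ± 0.049 at day 3 and 1.72 ± 0.090 at day 7 (SD, n = 3). The number of rows over 0.5 FPKM was 727 ± 13.5, 749 ± 10.6 and 765 ± 21.9. The other protein-coding rows also had their lowest median in a control library and their highest in a long-term library. Over the rows of all types tested for change, the median change on the log2(FPKM + 1) scale was 0.22 from control to long-term leaves. It was 0.09 from control to short-term and 0.13 from short-term to long-term leaves. With no filter on level, these medians were 0.0875, 0.0247 and 0.0518. Changes of single rows are given relative to the medians of the tested rows, as relative log2 changes, while the tests are of the unshifted values.

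A few rows held most of the signal. The highest row had 16.2%, the 10 highest 46.4% and the 50 highest 72.4% of the summed FPKM of the 1044 rows, averaged over libraries. A mean over 1 FPKM was found in 623 rows, over 10 in 177 and over 100 in 26, while 11 rows were listed at 0 in all 9 libraries. The annotated lncRNA rows as a whole made up 1.26% to 1.72% of the FPKM of a library.

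The highest row was XM_010694797.2 (gene 104906081, no product name), with a mean of 2548 FPKM over the 9 libraries. Its lncRNA locus has 246 nucleotides in 2 exons between 3599778 and 3600133 of NC_025813.2. Next came XM_010681573.2 (gene 104895145), with 804, 719 and 457 FPKM in control, 906, 1241 and 941 at day 3 and 953, 1020 and 883 at day 7. Both treated groups lay above the control group, but the adjusted p was 0.182 at day 3 and 0.093 at day 7. XM_010680901.2 (gene 104894619) had 1013, 669 and 487 FPKM in control, 806, 937 and 1131 at day 3 and 743, 529 and 660 at day 7, and the control group overlapped both others, while every long-term library lay below every short-term library (limma, adjusted p = 0.25 for that difference). Of the 10 highest rows, 2 carry a gene with a product name. These were the cytochrome c oxidase copper chaperone 1 (XM_019252661.1, row 2), which delivers copper to the respiratory chain, and the ATP-dependent zinc metalloprotease FTSH 2 (XM_010691423.2, row 1), which takes part in the repair of photosystem II. The FTSH 2 row had 263 ± 18.0, 272 ± 8.53 and 267 ± 30.4 FPKM in control, short-term and long-term leaves, differences below the spread between libraries.

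Repeated identifiers were common among these rows. Of the 688 identifiers, 337 had 1 row, 346 had 2 and 5 had 3, so that 51.0% were repeated, against 0.671% of the 32046 other protein-coding identifiers. In the 346 pairs the higher row had a median of 4.98 FPKM (quartiles 1.62 and 13.0) and the lower row 0.385 (0.123 and 0.960). The row listed first was the higher in 261 pairs, and the order of the 2 rows was the same in all 9 libraries in 273. The means of the pair differed by more than 10-fold in 180 pairs and by less than 2-fold in 48. Rows of identifiers without a repeat had a median of 2.33 FPKM (0.869 and 7.20), between those of the higher and the lower rows.

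The 2 rows of an identifier varied largely apart from each other across libraries. In the 173 pairs with both rows tested, Pearson's r of log2(FPKM + 1) over the 9 libraries had a median of 0.103 (quartiles -0.146 and 0.387), was over 0.7 in 11 and below 0 in 62. These values share libraries and are given as a description. XM_010667971.2 shows such a pair, with a mean of 670 FPKM in row 1 and 2.38 in row 2 and an r of -0.56. In XM_010684403.2 the 2 rows moved together, with r = 0.97. Row 1 of it had 2.30, 0.528 and 0.306 FPKM in control and 3.30, 8.52 and 11.2 at day 7, and row 2 had 1.16, 0.188 and 0.149 in control and 1.81, 2.96 and 2.66 at day 7. In both rows every long-term library lay above every control library.

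**Figure D3:**
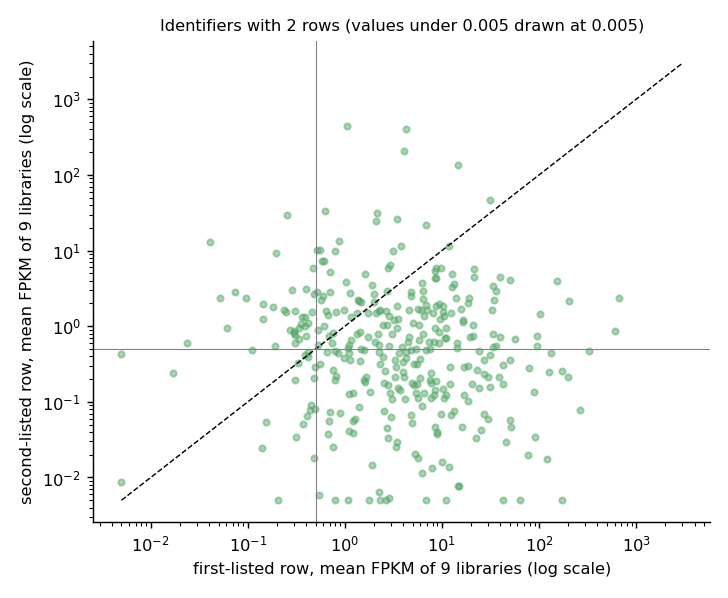
Mean FPKM over 9 libraries of the row listed second (vertical axis, log scale) against that of the row listed first (horizontal axis, log scale) for the 346 identifiers with 2 rows, with a dashed line at equality and grey lines at 0.5 FPKM. In 261 pairs the row listed first is the higher, and in 180 pairs the means differ by more than 10-fold.

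The 5 identifiers with 3 rows were low throughout most of their rows. XM_010669515.2 had a row with 6.73, 9.17 and 6.89 FPKM in control leaves beside one at 0 in 8 of the 9 libraries. XM_019247810.1, on a gene named for subunit M of eukaryotic translation initiation factor 3, had 1 row at 0 in all libraries and another at 1.67 to 3.11 FPKM. XM_010670080.2, on the gene of the response regulator ARR6, which dampens cytokinin signalling in Arabidopsis, had no value over 0.782 FPKM in any of its 3 rows. One row, XM_010690770.1 row 2, was listed at 0 in all control libraries with a mean of at least 1 FPKM in another group. It had 3.06 FPKM in short-term replicate 2 and 4.87 in long-term replicate 1 and 0 in the other 7 libraries.

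Change over time was tested in the 821 rows (78.6%) whose mean exceeded 0.5 FPKM in 1 or more of the groups, under 645 of the 688 identifiers. The other 223 rows were not tested. One limma fit of log2(FPKM + 1) covered 21244 rows of all types, and p-values were adjusted by the Benjamini-Hochberg method over all of them, with a threshold of 0.05. This scale understates the change of rows of low FPKM.

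After 3 days, 1 of the 821 rows had risen and 0 had fallen, or 0.122%, against a background of 0.08% of all rows tested (0.0565% higher and 0.0235% lower). At an unadjusted p under 0.05 there were 78 higher rows (9.5%, background 10.6%) and 45 lower (5.48%, background 6.41%). All short-term libraries lay above all control libraries in 136 rows (background 16.2%) and below them in 72 (background 9.08%). The unmoderated F-test called 0. Without control replicate 1 there were 6 calls, and without control replicate 2 or short-term replicate 1 there were 0.

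The row that had risen at day 3 was XM_010684125.2, on the gene of glutamate-glyoxylate aminotransferase 2, an enzyme of the peroxisomal part of photorespiration in Arabidopsis. It had 6.13, 6.41 and 8.62 FPKM in control, 42.5, 31.6 and 33.2 at day 3 and 39.3, 30.05 and 38.2 at day 7. Both treated groups lay wholly above the control, and the group means were 7.05 ± 1.36, 35.8 ± 5.85 and 35.9 ± 5.07 FPKM (SD, n = 3). The relative log2 change was 2.097 at day 3 (limma, adjusted p = 0.0175) and 1.98 at day 7 (adjusted p = 0.00142). The call at day 3 was lost without control replicate 2 or short-term replicate 1 (highest adjusted p = 0.0988), and that at day 7 held without any single library. Another row with this gene identifier, XM_010684124.2, is not under an annotated lncRNA identifier. It had 953, 1091 and 1123 FPKM in control, 1006, 982 and 883 at day 3 and 876, 790 and 720 at day 7. It fell at day 7 by 0.41 on the unshifted log2 scale (limma, adjusted p = 0.0398), so the 2 rows moved in opposite directions. Whether XM_010684125.2 measures another transcript of this gene or the lncRNA was not settled. The lncRNA locus under this identifier has 774 nucleotides in 2 exons between 50541411 and 50542850 of NC_025817.2, downstream of a messenger RNA that ends at 50540784.

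After 7 days, 114 of the 821 rows had risen (13.9%, background 16%) and 35 had fallen (4.26%, background 5.05%). Together these were 149 rows, or 18.1% against 21.1% of all rows tested, under 147 identifiers. Both shares lay near the background, and the small difference depended on how repeated identifiers were counted. With the rows of an identifier summed, 104 of 647 had risen and 32 had fallen, against 3405 and 1071 of 21010 over all types. With only the first row of each identifier, 103 of 614 had risen and 31 had fallen, against 3414 and 1071 of 20927. The median log2 change of the 821 rows was 0.19, against 0.22 for all rows tested. With the libraries scaled by median ratios, 40 rows had risen and 49 had fallen, so the balance of higher over lower rows depended on the scaling. Transcripts of uncertain coding potential held 52.5% to 54.7% of the FPKM in control and short-term libraries. In long-term replicates 1, 2 and 3 they held 49.0%, 38.7% and 47.5%. The part of this difference in the changes was not tested. The count of calls was 177 without control replicate 1, 27 without control replicate 3, 43 without control replicate 2 and 25 without long-term replicate 2.

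Among the rows that had risen, the relative log2 change ranged from 0.11 to 5.05 with a median of 0.64, and group means differed by more than 2-fold in 63 and by more than 4-fold in 21. Among those that had fallen it ranged from -2.88 to -0.57 with a median of -1.05, with 21 past 2-fold and 5 past 4-fold. The groups did not overlap in 107 of the 114 and in all 35 (over all 821 rows, 219 lay above and 66 below the control, or 26.7% and 8.04%, against backgrounds of 28.9% and 9.36%). The short-term mean lay between the control and the long-term mean in 109 of the rows that had risen and in 29 of those that had fallen. No share over all called rows is given beside these counts, so they do not set the annotated lncRNA rows apart. Against short-term leaves, long-term leaves had 0 rows called in either direction (background 0.00941%), with 113 rows higher and 30 lower at an unadjusted p under 0.05, against backgrounds of 16.3% and 5.07% of all rows. The unmoderated F-test called 1.

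**Figure D4:**
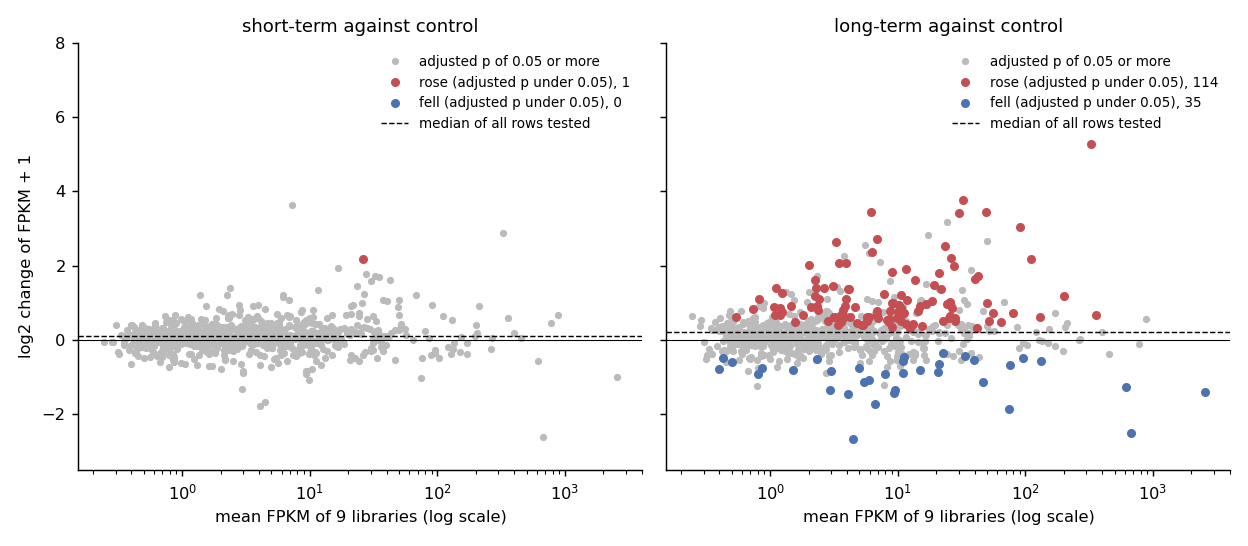
Change of log2(FPKM + 1) from control (vertical axis) against mean FPKM of the 9 libraries (horizontal axis, log scale) for the 821 tested rows, at day 3 (left) and day 7 (right), with the median of all rows tested as a dashed line. At day 3 a single row is coloured as past the threshold, and at day 7 there are 114 rows that rose and 35 that fell.

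The rows that fell at day 7 included the most abundant of all. XM_010694797.2 had 3212, 4251 and 4745 FPKM in control, 2162, 2394 and 1599 at day 3 and 1429, 1444 and 1693 at day 7. Its relative log2 change was -1.63 (SE 0.19, adjusted p = 0.00685) at day 7 and -1.08 (adjusted p = 0.0861) at day 3. XM_010667971.2 row 1 (gene 104883441, no product name) had 943, 1215 and 2404 FPKM in control, 261, 323 and 145 at day 3 and 258, 252 and 227 at day 7. The long-term libraries lay within the range of the short-term ones, with a relative log2 change of -2.73 at day 7 (SE 0.37, adjusted p = 0.00742) and -2.69 at day 3 (adjusted p = 0.0645). XM_010685709.2 row 1 (gene 104898612) had 741, 870 and 1021 FPKM in control, 594, 703 and 499 at day 3 and 426, 321 and 344 at day 7. The 3 groups did not overlap, and the relative log2 change at day 7 was -1.49 (SE 0.18, adjusted p = 0.00691). None of these 3 genes has a product name, and the 3 calls at day 7 held when any single library was left out.

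The lowest change was that of XM_010684231.2 row 1 (gene 104897372, no product name). It had 6.61, 13.0 and 10.6 FPKM in control, 2.06, 3.28 and 2.05 at day 3 and 1.50, 0.360 and 0.457 at day 7, a relative log2 change of -2.88 at day 7 (SE 0.30, adjusted p = 0.00424). No library of 1 group reached into another. XM_010672257.2 row 1 fell from 10.7 ± 4.57 FPKM in control to 2.42 ± 0.508 at day 7 (adjusted p = 0.00765), and XM_010680061.2 from 1.24 ± 0.107 to 0.179 ± 0.0628 (adjusted p = 0.00685). In the latter the short-term libraries, at 1.02, 0.978 and 0.927 FPKM, lay close to the control.

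**Figure D5:**
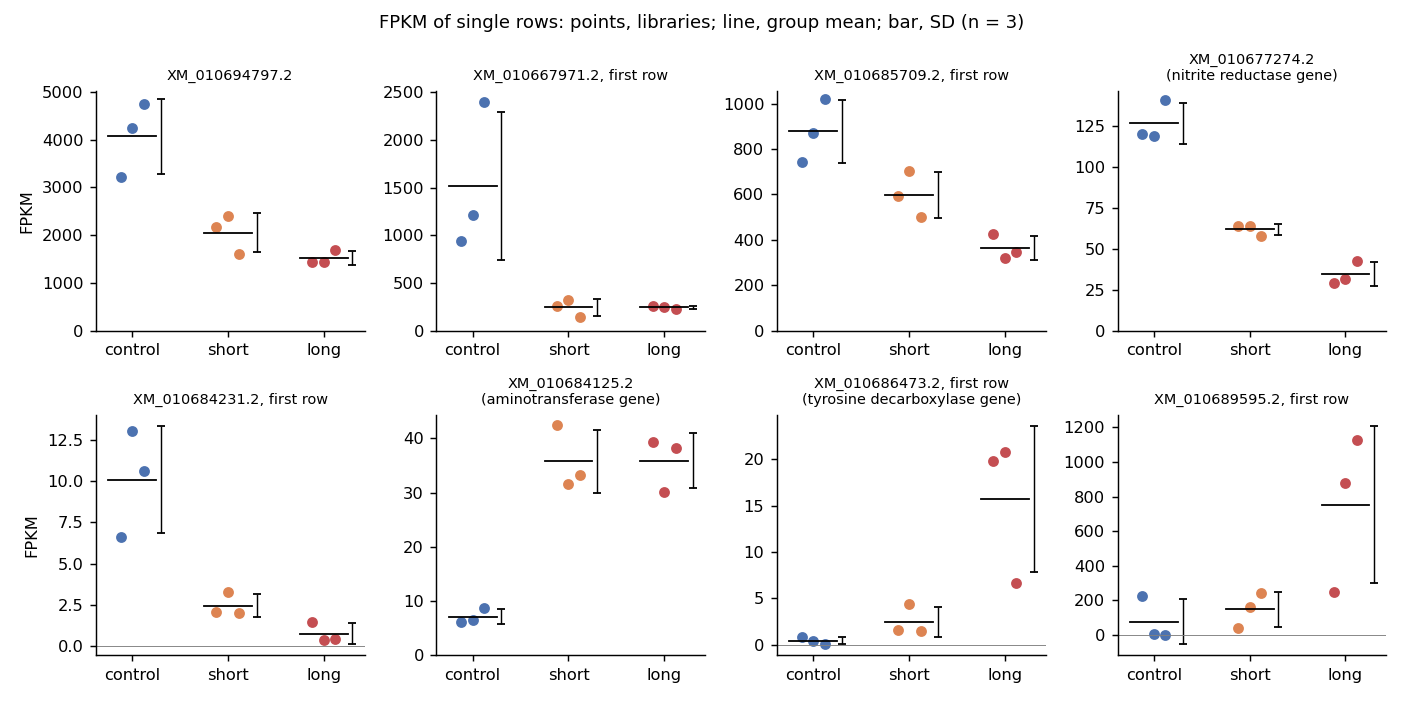
FPKM of 8 rows in the 9 libraries (points, vertical axis, linear scale), with the group mean as a line and the SD of 3 libraries as a bar beside it. In the first 5 panels every long-term library lies below every control library, as in XM_010694797.2 with 1429 to 1693 against 3212 to 4745 FPKM, and in the last 3 every long-term library lies above.

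Rows on genes of nitrogen and amino acid metabolism were called in both directions. This and the next product-name groups were chosen after the values were seen, and 316 of the 1044 rows carry a product name. Of 8 tested rows in this group 2 had risen and 4 had fallen, where 16% of all rows tested had risen and 5.05% had fallen. XM_010677274.2, on the gene of ferredoxin-nitrite reductase, which reduces nitrite to ammonium in the plastid, had 120, 119 and 141 FPKM in control, 63.8, 64.0 and 57.9 at day 3 and 29.1, 31.7 and 42.6 at day 7. Its libraries fell into 3 separate ranges, and its relative log2 change was -1.11 at day 3 (adjusted p = 0.0645) and -2.08 at day 7 (SE 0.15, adjusted p = 0.00142). The lncRNA locus under this identifier is 1 of those longer than their span, with 27114 nucleotides in 53 exons.

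XM_010686473.2 row 1, on the gene of tyrosine decarboxylase 1, which makes tyramine from tyrosine, had 0.801, 0.430 and 0.0574 FPKM in control, 1.61, 4.34 and 1.43 at day 3 and 19.8, 20.7 and 6.67 at day 7. The 3 groups did not overlap, and the relative log2 change at day 7 was 3.22 (SE 0.46, adjusted p = 0.00667). Row 2 of this identifier was at 0 in 8 libraries. Another row with this gene identifier, XM_010686474.2, had 39.9, 20.1 and 11.1 FPKM in control and 52.1, 61.8 and 82.2 at day 7. It also rose (limma, adjusted p = 0.0361). XM_010695197.2, on a gene named for the dihydrodipicolinate reductase-like protein CRR1, which takes its name from an enzyme of lysine synthesis but is needed for the plastid NDH complex in Arabidopsis, is counted here by name and fell from 15.2 ± 4.76 to 4.99 ± 1.47 FPKM (adjusted p = 0.0139). ATP phosphoribosyltransferase 2, the entry enzyme of histidine synthesis, and threonine dehydratase, the entry enzyme of isoleucine synthesis, had the 2 other falls (adjusted p = 0.0376 and 0.0470). The CRR1 call was lost without control replicate 2, control replicate 3 or long-term replicate 2, and the last 2 without most single libraries.

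Rows on genes whose products are mostly plastid proteins in other plants fell or did not pass. Of 5 tested rows on carotenoid genes 0 had risen and 2 had fallen. The counts were 0 and 2 of 4 on ribosomal proteins of the bacterial type. They were also 0 and 2 of 5 on plastid folding and proteolysis and of 4 on tetrapyrrole or plastid lipid binding. Of all rows tested, 16% had risen and 5.05% had fallen. Because these groups were chosen after the values were seen, the shares cannot show an excess of falls. In the same order, the median unshifted log2 changes of the tested rows were 0.009, -0.12, -0.21 and -0.43, against 0.22 for all rows tested. Phytoene dehydrogenase, an early enzyme of carotenoid synthesis (XM_010689167.2 row 1), had 9.33, 8.96 and 13.0 FPKM in control, 8.40, 9.57 and 7.12 at day 3 and 6.22, 3.72 and 5.31 at day 7 (adjusted p = 0.0200 at day 7). Carotene epsilon-monooxygenase, an enzyme of lutein synthesis (XM_010685678.2 row 1), fell from 26.8 ± 3.10 to 16.7 ± 2.22 FPKM (adjusted p = 0.0161). All long-term libraries of both rows lay below all control libraries. Row 2 of XM_010685678.2, with a mean of 5.76 FPKM, had an unshifted log2 change of 0.028 at day 7 and 0.47 at day 3. The tetrapyrrole-binding protein (XM_010673869.2) fell from 27.7 ± 2.27 to 14.9 ± 2.37 FPKM (adjusted p = 0.0114) and kept its call without any single library, and the co-chaperone GrpE (XM_010688845.2) fell from 19.7 ± 3.71 to 10.7 ± 1.45 (adjusted p = 0.0129). The calls of the GrpE row and of both carotenoid rows were lost without long-term replicate 2, those of both carotenoid rows also without control replicate 3 and that of the carotene epsilon-monooxygenase row also without control replicate 2. The row of the 30S ribosomal protein S1 (XM_010674298.2 row 1) was just past the threshold, with 158 ± 19.2 against 107 ± 24.8 FPKM (adjusted p = 0.0488), and lost its call in 7 of the 9 fits without 1 library. These declines ran beside that of the summed leaf markers, whose part in them was not tested.

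Pentatricopeptide repeat proteins, which bind and process organelle RNAs, gave 3 rises and 2 falls in 15 tested rows, against 16% and 5.05% of all rows tested. XM_010687460.2, named after At1g07590, had 20.9, 3.89 and 2.31 FPKM in control, 12.3, 15.9 and 31.5 at day 3 and 41.3, 27.5 and 54.9 at day 7 (relative log2 change 2.30, SE 0.66, adjusted p = 0.0325). Control replicate 1 lay within the short-term range here. XM_010689914.2 row 2, named after At5g21222, fell from 64.4 ± 5.48 to 29.6 ± 7.08 FPKM (adjusted p = 0.0184). The first call was lost in 5 of the 9 fits without 1 library, and the second without control replicate 2, control replicate 3 or long-term replicate 2.

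Of 10 tested rows on genes for disease resistance proteins and receptor-like kinases, 3 had risen and 0 had fallen, against 16% and 5.05% of all rows tested. XM_010673497.2, on a gene for a leucine-rich repeat receptor-like kinase named after At3g47570, had 43.6, 2.62 and 2.82 FPKM in control, 9.09, 19.8 and 17.8 at day 3 and 35.2, 115 and 192 at day 7. Control replicate 1 was above long-term replicate 1, and the call (adjusted p = 0.0412) was lost in 7 of the 9 fits without 1 library. The row of a disease resistance protein named after At1g15890 (XM_019250931.1 row 2) had 7.08, 4.73 and 1.56 FPKM in control and 11.4, 20.8 and 22.7 at day 7 (adjusted p = 0.0219). A receptor-like kinase named for leaf rust resistance (XM_010695052.2) had 1.45 ± 1.26 against 5.08 ± 1.54 FPKM (adjusted p = 0.0261). Both calls were lost without control replicate 2, control replicate 3, long-term replicate 2 or long-term replicate 3.

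Rows on genes for ion transport, redox proteins and gene regulation were counted against the same shares over all rows, 16% higher and 5.05% lower. Of 3 tested rows on ion and metal transport 1 had risen, the putative calcium-transporting ATPase 13 (XM_010676523.2), a pump that moves calcium out of the cytosol. It had 0.722, 0.0429 and 0.0208 FPKM in control, 0.0796, 0.212 and 1.02 at day 3 and 1.33, 10.1 and 15.8 at day 7 (relative log2 change 2.41, SE 0.66, adjusted p = 0.0284). Of 6 rows on osmolyte and redox proteins 1 had risen, probable nucleoredoxin 2 (XM_010694456.2), from 0.995 to 2.81 FPKM (adjusted p = 0.0313). The ATPase call was lost in 4 and the nucleoredoxin call in 6 of the 9 fits without 1 library. Of 17 rows on chromatin and transcription 2 had risen and 0 had fallen. PHOSPHATE STARVATION RESPONSE 1, a transcription factor of phosphate supply (XM_010698185.2 row 1), had 7.08, 5.82 and 4.88 FPKM in control, 9.05, 8.48 and 7.62 at day 3 and 11.2, 13.8 and 12.9 at day 7. Its 3 groups did not overlap, and the call (relative log2 change 0.77, adjusted p = 0.00733) held without any single library.

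The highest change of all was in a row without a product name. XM_010689595.2 row 1 (gene 104901959) had 228, 3.68 and 3.05 FPKM in control, 43.4, 161 and 245 at day 3 and 249, 881 and 1130 at day 7, a relative log2 change of 5.05 (SE 1.48, adjusted p = 0.0394). Control replicate 1 was at nearly the level of long-term replicate 1 and within the short-term range, and the call was lost in 7 of the 9 fits without 1 library. In XM_010669122.2 row 1 control replicate 1 lay above all short-term and below all long-term libraries, with 86.2, 11.05 and 8.72 FPKM in control, 27.4, 62.5 and 38.3 at day 3 and 105, 202 and 272 at day 7 (adjusted p = 0.0303). Deoxyhypusine synthase, which modifies a translation factor (XM_010682986.2), also had its highest control value in replicate 1, with 0.997, 0.159 and 0.0895 FPKM in control and 1.99, 5.82 and 7.11 at day 7 (adjusted p = 0.0139).

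In 3 other risen rows the control libraries lay closer together than in the 3 rows above, though control replicate 1 was again the highest of them. XM_010690288.2 row 1 had 22.3, 16.2 and 12.3 FPKM in control, 60.0, 37.0 and 65.8 at day 3 and 54.0, 53.6 and 61.1 at day 7, with a relative log2 change of 1.49 at day 7 (adjusted p = 0.00727) and 1.53 at day 3 (adjusted p = 0.0701). XM_010672520.2 had 6.91 ± 0.809, 10.9 ± 0.538 and 12.4 ± 0.483 FPKM (adjusted p = 0.00707 at day 7), and XM_010696576.2 row 1 had 61.8 ± 4.82, 73.4 ± 2.18 and 103 ± 8.30 (adjusted p = 0.00685). In these 3 rows both treated groups lay above the control, and the calls at day 7 held without any single library. Of the 50 rows called at day 7 that were named by rule or belong to a product-name group, 16 kept the call in all 9 fits without 1 library. The other 34 lost it without long-term replicate 2, and 32 of the 50 lost it without control replicate 3 and 29 without control replicate 2.

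Calls were spread unevenly over the kinds of row. In the pairs, 75 of 339 tested higher rows (22.1%) and 12 of 173 tested lower rows (6.94%) were called at day 7, and both rows of 2 identifiers, XM_010681062.2 and XM_010684403.2, which rose. Among identifiers with 1 row, 62 of 301 were called (20.6%), with 48 higher and 14 lower. Where the deposited length was over the span, 3 of 76 tested rows had risen and 6 had fallen (11.8%), against 111 and 29 of 745 (18.8%) elsewhere. The shares called in the 4 bins of locus length, from short to long, were 18.8%, 19.9%, 19.7% and 14.3%. For loci on chromosomes the share was 19.6% and on unplaced sequences 13.7%. These are counts over members and were not tested against each other. The kinds of row also differed in level. Median FPKM was 4.98 in the higher and 0.385 in the lower rows of all pairs. It was 1.82 for loci on chromosomes and 1.05 for those on unplaced sequences. The part of level in these shares was not tested.

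Further rows with the same gene identifier were listed for 226 of the rows, of which 168 were tested. For the tested rows, Pearson's r over the 9 libraries was taken between the row and the summed other transcripts of its gene identifier. This r had a median of -0.056, was over 0.7 in 17 and below 0 in 84. Rows whose other transcripts were at 0 throughout, such as XM_010672515.2, are among the 168 but have no r. The other transcripts passed no filter, and some lay near 0, such as 0.0306 FPKM for XM_010689889.2. One of the closer pairs was XM_010677384.2, on a gene for a hypothetical protein, with 2.78, 0.163 and 0.0602 FPKM in control and 1.80, 5.42 and 8.36 at day 7, and r = 0.94. The other transcript had 58.9, 1.45 and 0 FPKM in control and 41.7, 128 and 184 at day 7, and neither passed the test (adjusted p = 0.0684 and 0.0572). XM_010676938.2, on the gene of the clock-related factor REVEILLE 2, had 0.883 FPKM on average against 48.3 for the other transcript, and neither changed past the threshold in any comparison.

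The genes that make small RNAs or degrade RNA, which act on noncoding transcripts, were read from the same table after summing FPKM per gene. Of 18 such genes 5 had risen and 0 had fallen at day 7. Of all 17020 genes tested, 4510 had risen and 1242 had fallen, or 33.8% together. At day 3, 0 of the 18 were called, against 22 of all genes. RNA-dependent RNA polymerase 1, which copies RNA in silencing, rose from 13.4 ± 3.06 to 31.4 ± 8.72 FPKM (adjusted p = 0.00896). The other 4 were 5'-3' exoribonuclease 4 and 5'-3' exoribonuclease 3, which degrade RNA from the 5' end, protein decapping 5 and the nonsense-mediated decay factor UPF2, with adjusted p from 0.00977 to 0.0383. The median of the list was 0.05 above that of all genes on the log2 scale. Argonaute 1 had 21.8 ± 2.83 and 24.7 ± 1.35 FPKM in control and long-term leaves (adjusted p = 0.236).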

How the data were processed

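Leaf RNA of 9 libraries was analysed from the deposited transcript table, in which the authors give FPKM per transcript and library, and from the deposited lists of lncRNAs, messenger RNAs and transcripts of uncertain coding potential, with positions, exon numbers and lengths. The authors removed ribosomal RNA, aligned strand-specific reads with HISAT2 and assembled transcripts with StringTie 1.3.1. Their methods name Cuffdiff for FPKM, and no source used here states the genome build. No sequences are printed, since no genome of these positions was used here.

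Rows whose mean exceeded 0.5 FPKM in 1 or more groups were fitted as log2(FPKM + 1), with 1 coefficient per group, a variance trend and all 9 libraries (limma 3.58.1, R 4.3.3). P-values were adjusted by the Benjamini-Hochberg method at 0.05 over all 21244 rows. Tables were handled in Python 3.11.15 with pandas 2.3.3. The fit was tested on simulated data. The replicates are stated to be biological. Members and lists were chosen with earlier results of these data known.

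Rows named were the 10 highest, up to 10 highest and 10 lowest changes per comparison among called rows with separate groups and 1 FPKM or more on average in 1 of them (with fewer than 3 calls, the 5 smallest p per direction), the length and exon extremes, rows at 0 in 1 group, 5 identifiers with most rows and 5 same-gene pairs, of which a sample is printed. Product-name groups were chosen after values were seen. Alternatives changed the pseudocount, filter, scaling, groups, trend, weights, test, block, handling of repeats and libraries.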

Additional observations from a re-analysis of the deposited data

Results flagged for a closer look

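In 3 rows every short-term library lay below and every long-term library above all control libraries, or 0.365% of the 821 tested, as in 48 (0.226%) of all 21244 rows tested. XM_010669732.2 row 1 had 0.419, 0.290 and 0.346 FPKM in control, 0.195, 0.241 and 0.287 in short-term and 0.476, 0.578 and 0.714 in long-term leaves, and its log2 change at day 7 was 0.35 higher than that at day 3 (limma, adjusted p = 0.195 for long-term against short-term leaves). XM_010675386.2 row 1 had 17.4, 17.5 and 18.7 FPKM in control, 17.0, 16.8 and 15.9 in short-term and 22.8, 19.9 and 21.2 in long-term leaves, a difference of 0.35 (adjusted p = 0.137). XM_010669431.2 row 1 had 119, 116 and 117 FPKM in control, 98.6, 111 and 102 in short-term and 120, 140 and 156 in long-term leaves, a difference of 0.41 (adjusted p = 0.137). None of the 3 differences passed the test.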

How the results depend on the processing

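At day 7, 149 rows were called, against 90 with no filter, 89 with median-ratio scaling, 42 with 2 groups only and 224 with array weights, and 25 to 177 when 1 library was left out. At day 3 the count was 1, against 19 with array weights, 0 with the unmoderated t-test and 0 to 6 without 1 library. Between long-term and short-term leaves it was 0, against 9 with array weights, 1 with the t-test and 0 to 5 without 1 library. With the replicate number as a block the counts were 0 at day 3 and 44 at day 7, and 0 between the treated groups. Deviations from the group mean correlated from -0.33 to 0.11 between libraries with the same number and from -0.18 to 0.30 with different numbers. With 3 libraries in each group, these values cannot settle whether the numbers pair the samples. The ratio of median FPKM to that of other protein-coding rows, 3.25, was 7.28 with repeated identifiers summed and 0.690 among tested rows, which reversed it. None of the 50 described rows called at day 7 changed sign under the alternatives run on them, of which summing repeated identifiers covered 22 rows and taking their first row 46. The cause of these changes was not tested. FPKM carry no read counts, so the error of rows of low level is unknown, and whether a row measures the lncRNA or the messenger RNA of its identifier was not settled.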
